A study of Homo sapiens with 12 samples.

Results

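In an immunoprecipitation of PANC-1 RNA with an antibody against 1-methylguanosine (m1G), 205 gene IDs carried 6 or more peaks each, and these 1519 peaks are described here. They were chosen by counting, in the deposited MetDiff peak list, the rows under each Ensembl gene ID, and keeping every row whose ID had at least 6. The list held 9585 peaks under 4515 IDs, so the genes with many peaks were 4.54% of the IDs and held 15.8% of the peaks. The number of peaks per gene is thus what chose them. Fold, false discovery rate (FDR) and length of the peaks come from the same list and are given as description, with no test.

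The series used PANC-1, an established human pancreatic ductal adenocarcinoma line, transfected with siRNA. Its 12 libraries formed 4 groups of 3: input RNA of control cells, m1G immunoprecipitated RNA of control cells, input RNA of cells depleted of the methyltransferase TRMT5 for 4 days, and m1G immunoprecipitated RNA of those cells. All were made from fragmented polyadenylated RNA in experiment 2, and the labels do not say whether the replicates came from separate cultures. Both deposited peak lists belong to the whole series. They hold no value for a single library or group, so no value below compares knockdown with control, no value has an error across replicates, and the read depth behind a peak is unknown.

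m1G is a guanosine with a methyl group on the edge of the base that pairs. At the tRNA position next to the anticodon it is made by TRMT5 and helps keep the reading frame. In an immunoprecipitation of fragmented RNA, reads pile up where the antibody bound, and a peak caller reports each stretch where the precipitate exceeds the input. The part of transcript length and abundance in the number of peaks was not tested. Antibody binding is not itself proof of the modification.

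Each MetDiff peak is a set of blocks, which are stretches of exon, with a p-value, an FDR and a ratio. The ratio is called fold here and was read as precipitate over input from its column position. No header states it, so another contrast is possible, and every fold below would then have another meaning. All peak values are the authors'. Coordinates are GRCh38, counted from 1, and peaks are numbered along the strand of the gene, so that peak 1 is nearest the 5′ end. Gene names come from position in a RefSeq table: 185 IDs lay wholly within 1 gene, 10 more were named for the gene holding most of their peaks, and 10 are given by ID only.

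The letters of a peak could be read only where it reached a window around a gene start listed by RefSeq (GRCh38.p14), and 26 peaks had at least 30 bases in such a window of their own gene, on their own strand. The first 30 of those bases are shown for 8 of the 12 with the highest fold, because they include the strongest peaks of several genes and to show the range of their guanine content. Capitals mark every guanine, and each stretch is written 5′ to 3′.
B4GALNT4 peak 1 (chr11:369499-369528, plus strand, fold 29.9): GatccGcGGtGGcaGccGtGGatGctGttc
PCYT2 peak 1 (chr17:81911385-81911414, minus strand, fold 29.3): GcGGcGGcGctcGGaGtcGccGGGaGctGc
SBF1 peak 1 (chr22:50475006-50475035, minus strand, fold 24.6): GGGcGGGccGGctGGctGGGaaGatGGcGG
LZTS2 peak 3 (chr10:100999750-100999779, plus strand, fold 15.7): cGcccactcGcaccGGGcGGGGGctGGcca
ARHGAP4 peak 2 (chrX:153926266-153926295, minus strand, fold 15): GGtGctGGccGcaGcGcccccaaGtcccGG
TTYH3 peak 1 (chr7:2631986-2632015, plus strand, fold 9.17): GcGGaGccGaGcGcaGccGaGccGGGccGa
NOTCH2 peak 1 (chr1:120069624-120069653, minus strand, fold 8.96): cGttGcacacccGaGaaaGtttcaGccaaa
PLCH2 peak 1 (chr1:2476289-2476318, plus strand, fold 8.50): GtcctttGctcccccaGccttGGGaGGcGG
Guanine made up between 20% (6 of 30, NOTCH2) and 60% (18 of 30, SBF1) of these stretches. The stretches of B4GALNT4, SBF1, TTYH3 and PLCH2 begin exactly at the listed start.

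A single mature miRNA lay within a peak on the same strand. The last peak of IGSF9B, which encodes an immunoglobulin-type adhesion protein, covered all 24 bases of hsa-miR-4697-3p (chr11:133898506-133898529, minus strand) and 32 of the 78 bases of its hairpin, with a fold of 4.0. Its seed, bases 2 to 8, is in capitals.
hsa-miR-4697-3p: uGUCAGUGacuccugccccuuggu
The other 6 peaks of IGSF9B had folds between 3.0 and 11.9.

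IDs became fewer with each further peak up to 12. There were 2226 IDs with 1 peak, 1044 with 2, 564 with 3, 320 with 4 and 156 with 5, just outside the rule. Inside it were 84 with 6, 48 with 7, 35 with 8, 16 with 9, 7 with 10, 6 with 11, 2 with 12, 3 with 13 and 4 with 14. Nothing in this series marks 6 as a natural border. The IDs just outside, with 5 peaks, had a median of 705 block bases and a median gene-level fold of 4.27, and those just inside, with 6, had 852 and 4.34.

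**Figure D1:**
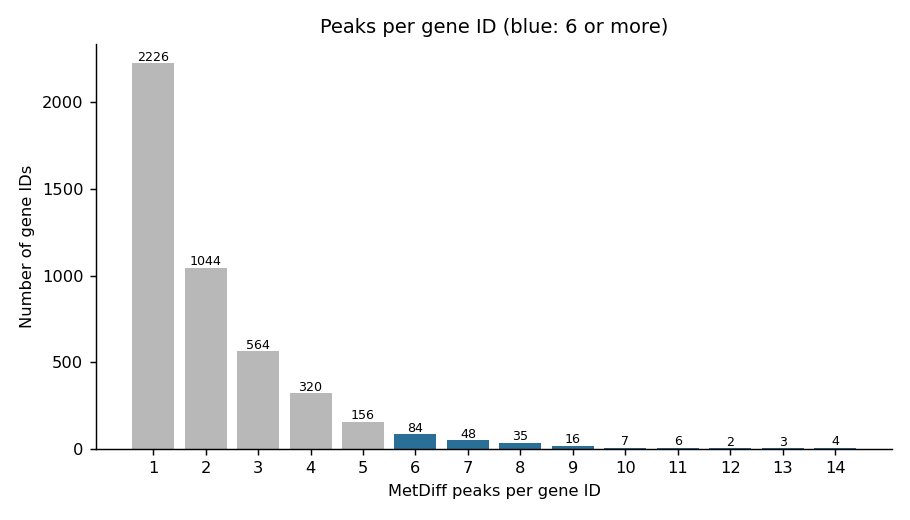
Bars give the number of Ensembl gene IDs (y axis) for each number of MetDiff peaks per ID (x axis); grey bars are IDs with 1 to 5 peaks and blue bars the 205 IDs with 6 or more. The counts fall from 2226 IDs with 1 peak to 84 with 6 and 4 with 14, with no break at 6.

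The genes with the most peaks had products of many kinds. AGRN, which encodes the heparan sulphate proteoglycan agrin, LAMA5, the laminin alpha-5 chain, HSPG2, the basement membrane proteoglycan perlecan, and AHNAK2, a giant scaffold protein, had 14 peaks each. ABCA2, a lipid transporter, AKT2, a serine/threonine kinase of insulin signalling, and EPPK1, the cytolinker epiplakin, had 13. MACF1, which links actin to microtubules, and SBF1, a myotubularin-related pseudophosphatase, had 12. COL18A1 (collagen XVIII), DYNC1H1 (the heavy chain of cytoplasmic dynein), KIF1A (a kinesin), KMT2D (a histone H3 lysine methyltransferase), MRC2 (a collagen receptor) and ARHGAP4 (a GTPase-activating protein) had 11.

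There were 10 peaks in each of ABCA7, CEP250, ESPL1, NBEAL2, NEAT1, NOTCH3 and UNC45A. ESPL1 encodes separase, the protease that frees sister chromatids, CEP250 a centrosomal linker, NOTCH3 a Notch receptor and UNC45A a myosin chaperone. NEAT1 is the long non-coding RNA that scaffolds paraspeckles. With 9 peaks followed VWA1, LZTS2, PCNT (pericentrin), NUMA1, UPF1 (the helicase of nonsense-mediated decay), TNRC18, LTBP3, TMEM94, FOXK1, SGSM2, TYK2 (a Janus kinase), MEG3, GCN1, INTS1 (a subunit of the Integrator complex), AMOTL2 and the ID ENSG00000282034.

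By chromosome, the share of IDs that had 6 or more peaks was highest on chromosome 22 (14 of 172 IDs, 8.14%), chromosome 14 (10 of 138, 7.25%), chromosome 21 (3 of 42, 7.14%) and chromosome 19 (27 of 433, 6.24%). It was lowest on chromosome 6 (2 of 182, 1.10%) among chromosomes with any, and chromosomes 13 (34 IDs) and 18 (49 IDs) held none. Over all IDs the share was 4.54%, and with so few IDs the values for chromosomes 13, 18 and 21 tell little. Some members were close neighbours. TUBGCP6 lay 670 bases from ENSG00000188130 on the same strand of chromosome 22.

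The exon blocks of the 205 genes together held 16.6% of all block bases in the list. Per gene they came to a median of 1051 bases, from 599 in PGP, a phosphatase of glycerol and glycolate phosphates, to 3305 in AGRN. After AGRN came LAMA5 with 2463, SBF1 with 2348, AHNAK2 with 2163, AKT2 with 2157 and D2HGDH, the mitochondrial D-2-hydroxyglutarate dehydrogenase, with 2089. ARHGAP4 had 2003, COL18A1 1952, VWA1, which encodes a small matrix protein, 1946 and LZTS2 1909. D2HGDH reached its place with only 7 peaks, one of which ran over 695 exonic bases (chr2:241768023-241768717), the longest among the members. ESPL1, in contrast, had 10 peaks on 1059 bases.

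The length of single peaks was much like that in the rest of the list. The median was 101 block bases in the members and over the whole list, but it lies in the shortest class of lengths and can show little. The members held 15.8% of the peaks and 16.6% of the block bases, and 35.6% of member peaks had several blocks (541 of 1519), that is, crossed from exon to exon, against 33.4% of all peaks. The larger totals per gene thus came mainly with the number of peaks. Across the 205 genes the number of peaks and the block bases, which share the peaks they count, had a Spearman correlation of 0.71.

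**Figure D2:**
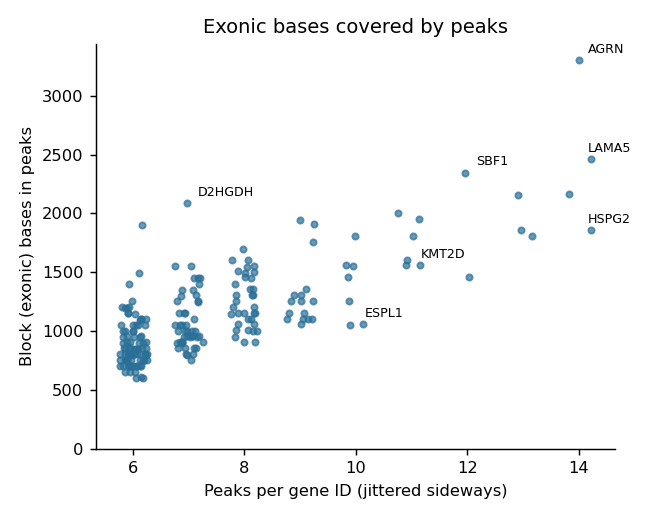
Each point is 1 of the 205 gene IDs, with its number of peaks on the x axis (moved slightly sideways at random to separate points) and the exonic bases in its peaks on the y axis. AGRN, with 3305 bases, and LAMA5, with 2463, lie above HSPG2, which has as many peaks on 1860 bases, and D2HGDH has 2089 bases with 7 peaks.

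Peak edges lay on a grid of 50 bases, and this sets what the spacing can show. Of the 1519 peaks, 99% had a length within 1 base of a multiple of 50, and 774 (51.0%) were 99 to 101 bases long, the shortest class. Among the 402 gaps of 1 to 500 bases between neighbouring peaks of a gene, 326 (81.1%) were 1 to 3 bases short of a multiple of 50. The smallest gap that was not an overlap was 98 bases, and 72 genes had a smallest gap of 98 or 99. With edges on such a grid, the number of peaks cannot be read as a number of modified bases.

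**Figure D3:**
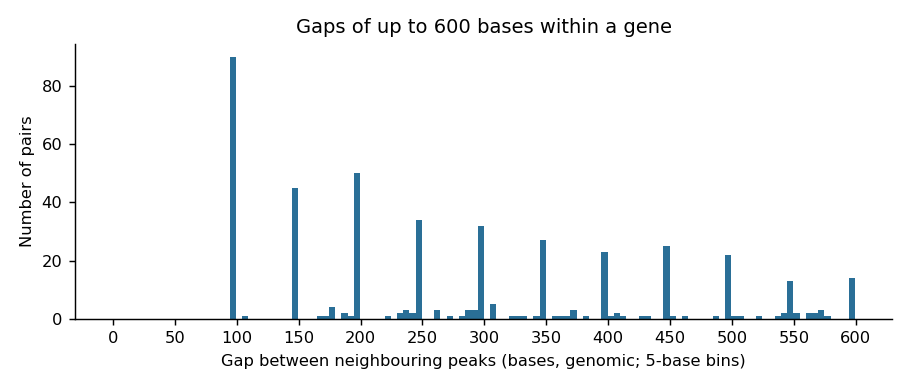
The histogram counts neighbouring peak pairs (y axis) by the genomic gap between them in bases (x axis, short gaps only, bins of 5 bases). The bars stand just under 100, 150, 200 and further multiples of 50, with 59 pairs at a gap of 99 and 31 at 98, and no pair lies between 0 and 97.

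Over all 1314 neighbouring pairs, the genomic gap had a median of 1182 bases, with quartiles of 351 and 4067. Introns are included in these distances, since exons outside the blocks were not known. In 13 pairs the peaks overlapped, in 90 the gap was 0 to 100 bases, in 312 it was 101 to 500, in 197 it was 501 to 1000, in 417 it was 1001 to 5000, in 123 it was 5001 to 10000 and in 162 it was longer. The widest median gaps were those of LTBP1, a latent TGF-beta binding protein, with 30142 bases, the chromatin remodeller CHD5 with 19561, the ubiquitin ligase HUWE1 with 18668, MACF1 with 17386 and NOTCH2 with 17361. The peaks of LTBP1 stretched over 451207 bases, of which 0.201% lay in blocks.

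At the other end, the narrowest median gaps were those of ENSG00000177946 (-94 bases, an overlap) and EPPK1 (49). The nestin gene NES had a median gap of 198 bases between its 8 peaks, as had ENSG00000173327, and LEMD2 had 199, although each of these 3 also had a gap of over 4000 bases. TLNRD1, a talin rod domain protein gene, had 6 peaks within 2930 bases, 34.1% of which lay in blocks. VWA1, with 9 peaks, had the highest such share at 34.9%, GPRIN1 had 6 peaks within 3238 bases (23.3%) and PGP 6 within 2705 (22.1%).

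In 3 genes the count of peaks was raised by peaks that overlapped each other. Among the members' peaks were 13 overlapping neighbours, 6 in EPPK1, 4 in ENSG00000177946 and 3 in NEAT1. In EPPK1, whose protein is built of plakin repeats, peak 1 (chr8:143872827-143873026, fold 11.8) and peak 2 (chr8:143872817-143873016, fold 9.0) were the same length and lay 10 bases apart. Joining peaks with at most 100 bases between them left 7 in EPPK1, 7 in NEAT1 and 4 in ENSG00000177946. The block bases of EPPK1 counted once came to 1180 rather than 1857, those of NEAT1 to 972 rather than 1258, and those of ENSG00000177946 to 838 rather than 1449. Similarly, ENSG00000080603 and ENSG00000282034 overlapped each other on the plus strand of chromosome 16, in the gene SRCAP, a chromatin remodeller, and shared 395 block bases, so 6 and 9 peaks there describe partly the same stretches.

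The fold varied widely within a gene. The highest fold of a gene divided by its lowest had a median of 4.91 (quartiles 3.65 and 7.15), and in 203 of 205 genes the ratio was at least 2, in 100 at least 5 and in 16 at least 10. Of the variance of log2 fold among member peaks, 84.3% lay within genes, which hold 86.6% of the degrees of freedom. Peaks of the same gene were thus about as unlike in fold as peaks of different genes. A ratio of extremes grows with the number of peaks, and for the 156 genes with 5 peaks it was 3.70. The SD of log2 fold within a gene, which depends less on that number, had a median of 0.81 in the members. It was 0.80 in genes with 5 peaks and 0.66 in genes with 2 to 5.

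Folds of member peaks were between 1.08 and 48.5 (median 4.18), while those of the whole list reached 61.5 (median 4.5). The strongest peak of each member had a median fold of 10.1, and 107 of the 205 genes had a peak of at least 10. A highest value grows with the number of peaks, and its median was 9.1 in IDs with 5 peaks and 6.19 over all IDs. Peaks over 151 bases long had a median fold of 5.30 (370 peaks), those of 102 to 151 bases 4.25 (375) and those of up to 101 bases 3.68 (774). The same order held over the whole list, with 5.79, 4.54 and 4.0.

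In some genes a single peak stood far above the others. TYK2 had folds, from peak 1 to peak 9, of 48.5, 9.12, 6.0, 5.96, 3.91, 6.07, 6.83, 2.65 and 3.31, and the first, at chr19:10380423-10380522, stood above a next highest of 9.12. In SCRIB, which encodes an apical-basal polarity scaffold, the folds were 4.03, 3.95, 5.47, 43.5, 8.75 and 2.16, the widest ratio of all members at 20.1. The strong one was peak 4 (chr8:143803432-143803657, FDR 0.0049). ENSG00000187954, given by position alone the name of the read-through gene TMEM276-ZFTRAF1, had 2.2, 7.75, 43.8, 10.8, 7.25 and 10.1. In all 3 a single peak stood out, at the 5′ end of TYK2 and further inside the others, and 4 of the 5 other peaks of TMEM276-ZFTRAF1 were also above 7.

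B4GALNT4, an N-acetylgalactosaminyltransferase gene, had folds of 29.9, 2.72, 5.66, 1.83, 3.12, 1.52, 2.96 and 6.28, with the high value in the stretch printed above. PCYT2, the regulatory enzyme of phosphatidylethanolamine synthesis, had 29.3, 2.88, 7.60, 5.21, 3.97, 3.94, 6.0 and 2.75, again highest at the 5′ end. KIF1A differed, with 9.13, 2.68, 6.02, 15, 1.88, 30, 2.71, 2.33, 2.40, 3.69 and 2.78, highest at peak 6, which crossed 3 exon blocks. ADCY6, an adenylyl cyclase, had 4.0, 26.4, 3.24, 1.70, 3.36, 13.5 and 3.44, with high values at peaks 2 and 6. MIR23AHG, the host RNA of a miRNA cluster, had 2.89, 3.06, 5.31, 5.33, 29.2, 7.33 and 5.40. Over all members the highest fold was a median of 1.41 times the second highest, and in 35 genes it was at least 2 times. The genes above are therefore the extreme of the range and not its usual case. ABHD17A (13.8) and ANKRD11 (11.4) had ratios of highest to lowest fold among the 10 widest, as had AGRN (15.4) and SBF1 (15.2).

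Other genes were even along their length. KIAA1671 had folds of 3.54, 2.96, 2.63, 2.27, 3.62 and 2.63, a ratio of 1.59, the smallest of all members, over a span of 156221 bases. EPHA2, an ephrin receptor, had 3.45, 2.99, 4.43, 4.26, 4.13 and 2.52. SPTAN1, the alpha chain of non-erythroid spectrin, had 8 peaks between 2.09 and 4.34, and PHRF1 and GPRIN1 had ratios of 2.06 each. These even genes had no peak above 7.67.

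The highest median folds over a gene's peaks were those of CCDC85C (9.62), TMEM276-ZFTRAF1 (8.93), ENSG00000173327 (8.66), SSC5D (8.56) and D2HGDH (8.50). In CCDC85C the folds of 6.78, 12.3, 8.83, 2.74, 11.8 and 10.4 were high at 5 of 6 peaks, whereas SSC5D, a secreted scavenger receptor gene, owed its place to 27.2, 16.3 and 9.42 at its last 3 peaks. The lowest medians were those of MYH9, the heavy chain of non-muscle myosin IIA (2.09), SBNO2 (2.31), ENSG00000080603 (2.50), COL11A1, a fibrillar collagen (2.47), and HUWE1 (2.55). MYH9 had 7 peaks of 2.09, 1.63, 4.07, 2.72, 1.34, 1.72 and 4.43, so it entered through many weak peaks.

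**Figure D4:**
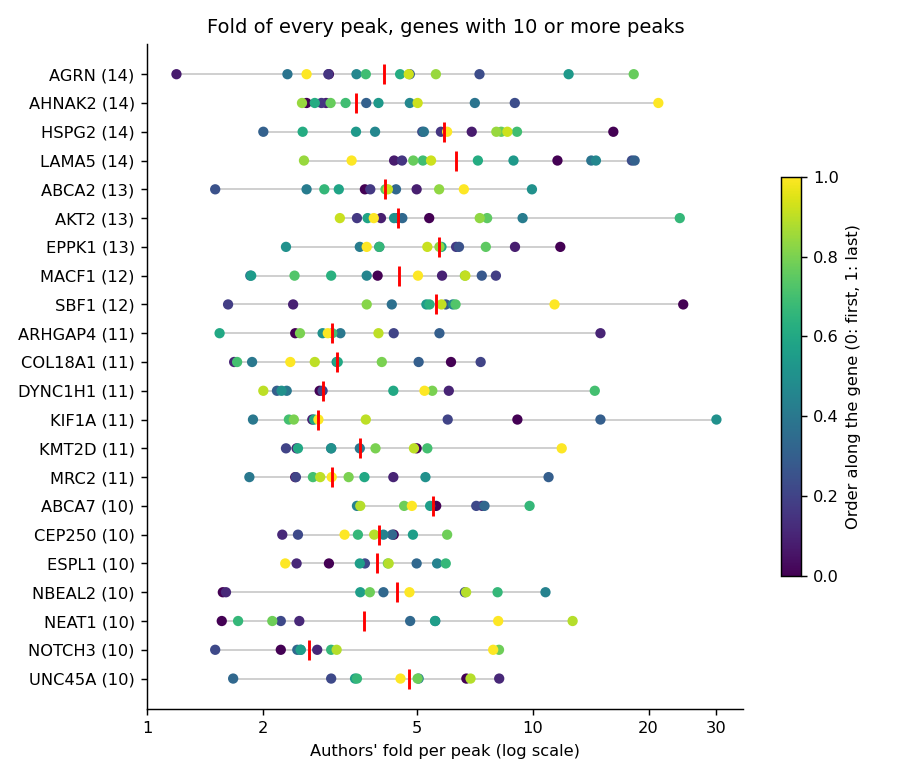
Each row is 1 of the 22 gene IDs with 10 or more peaks (number in brackets), each dot 1 peak at the authors' fold (x axis, log scale), coloured by its order from the first peak at the 5′ end (0) to the last at the 3′ end (1). Grey lines join lowest and highest fold and red ticks are medians, which lie between 2.63 (NOTCH3) and 6.33 (LAMA5); KIF1A reaches 30, SBF1 24.6 and AKT2 24.1 with 1 peak each.

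Place along the gene was described by order and by position. By order, first peaks had a median of 4.89, last peaks 3.90, and the peaks between them 4.12 in the 5′ part, 4.10 in the middle and 4.17 in the 3′ part. The first peak exceeded the last in 125 of 205 genes and was below it in 80. It was the highest of the gene in 41 of 205 (20%, 95% Wilson interval 15.1 to 26.0), and the last was in 24 (11.7%, 8.0 to 16.8). A share of 14.1% would fall to each place if all places were alike. With 6 peaks the first was highest in 22 of 84 genes (26.2%, against 16.7% for equal places). With 7 it was 9 of 48 (18.8% against 14.3%), with 8 it was 4 of 35 (11.4% against 12.5%). With 9 or more it was 6 of 38 (15.8% against 9.75%). Only with 6 peaks did the interval lie above the equal share. Among all IDs with 2 or more peaks the first was the highest in 43.0%, a value that fewer peaks raise by themselves. In IDs with 5 peaks it was 50 of 156 (32.1%) for the first and 22 (14.1%) for the last, where equal places give 20%, so the same lean was present outside the members. By position, the midpoint of the strongest peak lay within the first 10% of the stretch from first to last peak in 47 members (22.9%). In 58 (28.3%) it lay within the last 10%. How many peaks of any fold lay in these stretches was not counted, so the shares cannot show a lean to either end. In 140 of 205 members the strongest peak was neither first nor last.

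Peaks placed at a listed start had a higher median fold than the remaining peaks of the same genes. The promoter table held at least 1 start for 157 of the members' names, and in 38 genes a block began within 50 bases of a listed start. Those 38 peaks had a median fold of 7.20, and the 249 other peaks of the same genes 3.79. In 29 of 38 genes (76.3%) the start peak lay above the median of the gene's other peaks, and in 18 it was the highest. It was low in others, among them MTCL2 (2.43), RNH1 (2.58) and PCNT (2.69). IDs with 2 to 5 peaks had medians of 5.80 at 270 start peaks and 3.89 at 493 others, with 182 of 264 genes (68.9%) above, so this too was not seen in the members alone.

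Guanine content at these starts was measured in the same table. Within the 50 bases that follow a listed start, the bases covered by member peaks were 43.6% guanine (552 of 1267), those covered by peaks of other IDs 41.9% (5834 of 13929), all such bases of the members' windows 38.2% and over every window listed 31.2%. Bases of neighbouring windows are not independent. The part of base composition in the folds was not tested.

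By what their products do, 142 of the members were placed in 12 groups from textbook knowledge, after the members were known, and 63 were left out. The 13 genes of matrix and basement membrane had 122 peaks with a median fold of 4.33 and the largest totals, a median of 1549 block bases per gene. AGRN had folds of 2.96, 1.19, 2.95, 7.28, 4.8, 2.31, 3.49, 12.4, 4.53, 3.69, 18.3, 5.61, 4.77 and 2.59, strongest at peak 11 (chr1:1052487-1052686, FDR 0.00724). LAMA5 had 11.6, 4.37, 4.58, 18.1, 18.4, 14.2, 14.6, 8.92, 7.21, 5.19, 4.90, 2.55, 5.45 and 3.39. Its strong peaks were thus neighbours, peaks 4 to 7, while those of AGRN were apart. HSPG2 had 16.2 at its first peak (chr1:21937160-21937260, FDR 2.88e-09), then 6.95, 5.78, 5.17, 2.0, 5.22, 3.90, 3.48, 2.53, 9.11, 8.29, 8.05, 8.60 and 6.0, so values were lowest near the middle and higher at both ends. COL18A1 stayed between 1.68 and 7.33, and LAMB2, the laminin beta-2 chain, reached 14.3.

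The 18 genes of cytoskeletal linkers and filaments had 145 peaks with a median fold of 4.0. AHNAK2 had 2.59, 2.91, 2.83, 8.99, 3.70, 7.08, 4.8, 3.98, 2.72, 3.27, 2.99, 2.52 and 5.03, followed by 21.2 at its last peak (chr14:104941591-104941741), and 13 of its 14 peaks lay in a single block. Its relative AHNAK, with 8 peaks, had no fold above 5.65. The filamin gene FLNA (8 peaks, up to 18.9 at the first) and the envoplakin gene EVPL (7 peaks, up to 12.4) belonged here too. MICALL2, a junctional adaptor gene, had 2.83, 28.5, 8.95, 4.25, 3.94 and 4.68.

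The 12 genes of motors, microtubules and the centrosome had 102 peaks with a median fold of 3.88 and a median gap of 3280 bases. DYNC1H1 had 2.80, 6.06, 2.85, 2.17, 2.30, 2.23, 4.35, 14.5, 5.49, 2.0 and 5.24, highest at peak 8 (chr14:102030706-102032366). DCTN1, the large subunit of dynactin, which works with dynein, had 8 peaks up to 14.3. PCNT, CEP250 and TUBGCP6, all of the centrosome, had 9, 10 and 8. The 12 receptors and adhesion proteins had 91 peaks with a lower median, 3.57. NOTCH3 had 2.22, 2.76, 1.5, 2.45, 2.50, 2.50, 3.0, 8.18, 3.10 and 7.90, and NOTCH2, with 6 peaks, reached 8.96 at the first.

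The 15 genes of kinases and signalling had 117 peaks with a median fold of 4.43, among them TYK2 and ADCY6. AKT2 had 5.39, 4.04, 3.50, 4.46, 4.59, 9.42, 4.37, 3.73, 24.1, 7.62, 7.29, 3.16 and 3.87, with the high value at peak 9 (chr19:40234752-40234852). The 18 genes of chromatin and transcription had 126 peaks with a median of 4.24. KMT2D had 5.0, 2.44, 2.29, 3.0, 3.56, 3.0, 2.46, 5.33, 3.91, 4.92 and 11.9, highest at the last peak. ARID1A, a subunit of the SWI/SNF remodeller, had 8 peaks up to 15, and ANKRD11 8 up to 16.8. The 6 genes of RNA processing and translation control, UPF1, GCN1, PTBP1, SYMPK, SUGP2 and RNH1, had 43 peaks with a median of 4.08.

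The 14 genes of membrane traffic had 101 peaks with a median fold of 4.56. SBF1 had 24.6 at its start, then 2.39, 1.62, 5.95, 4.31, 6.21, 5.30, 5.40, 6.31, 3.71 and 5.80, and 11.4 at its last peak, so both ends were highest. The 18 enzymes of metabolism, glycosylation and proteolysis had 122 peaks with a median of 4.21. A summit of the MACS2 list described below lay inside a block in 9 of these 18 genes. The same was so in 8 of the 13 matrix genes, 7 of the 12 receptors and adhesion proteins, and 73 of all 205 members. RNA processing and translation control had 3 of 6, cytoskeletal linkers 8 of 18, and motors, microtubules and centrosome 5 of 12. Lower were kinases and signalling with 4 of 15, transporters and channels with 2 of 8, and chromatin and transcription with 4 of 18. Membrane traffic had 2 of 14, ubiquitin ligases 0 of 3 and non-coding RNAs 0 of 5. D2HGDH had 12, 9.0, 9.06, 3.62, 6.5, 5.68 and 8.50. The 8 transporters and channels had 65 peaks with a median of 3.85. ABCA7 had folds between 3.50 and 9.82 and ABCA2 between 1.5 and 9.96. The 3 ubiquitin ligases HUWE1, HERC2 and MARCHF8 had 20 peaks with a median of 3.38.

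The group of non-coding RNAs held NEAT1, the imprinted MEG3 and SNHG14, MIR23AHG and the pseudogene FER1L4, with 41 peaks and a median fold of 5.0. The share of non-coding genes over all IDs was not counted. NEAT1 had 1.56, 2.48, 2.22, 4.81, 5.59, 5.58, 1.72, 2.11 and 12.7 in its 5′ part and 8.14 after a gap of 17343 bases. MEG3 had 2.86, 7.27, 2.68, 2.32, 4.50, 6.0, 10.3, 2.75 and 1.44. SNHG14 had 7.62, 5.29, 8.69, 11.9, 15.7, 7.38, 3.67 and 3.55, all within 23781 bases of a gene that spans 595855. None of these 5 held a MACS2 summit inside a block, which was so for 132 of all 205 members. Within 150 bases, a summit lay near 6 of the 10 peaks of NEAT1, 2 of 9 of MEG3 and 1 of 8 of SNHG14.

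Beside these groups, 10 gene lists of 228 genes in all were set up with earlier results of the series known, and 39 of their genes were members, out of 151 with any peak. The list of filamins, spectrins, plakins and giant linkers gave 8 of 22, basement membrane and matrix 8 of 27, receptors, plexins and adhesion 5 of 32, chromatin and transcription 5 of 30, and motors and microtubule proteins 4 of 16, one of which, HUWE1, is a ubiquitin ligase and no motor protein. Secretory and membrane traffic gave 3 of 24, among them HERC2, which is placed above with the ubiquitin ligases. Myosin heavy chains and actin regulators gave 2 of 20, RNA processing and translation 2 of 27 and long non-coding RNAs 2 of 12. Of 18 genes of lipid synthesis and other large enzymes, 12 had a peak and 0 had 6 or more. The counts per list are out of all its genes, with or without a peak. Over all IDs, each of which has a peak, the share of members was 4.54%. The like count for the lists is the 39 of 151 genes with any peak, but the lists favour large genes.

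A second deposited list, of MACS2 summits (3705 single positions with −log10 q), was set beside the members. The same libraries may underlie both lists. A summit lay inside a block in 113 of 1519 member peaks (7.44%, 95% Wilson interval 6.22 to 8.87), against 7.0% of all peaks, and within 150 bases in 27.0% against 25.4%. Per peak, then, member peaks were near the background. Per gene, 73 of 205 members (35.6%, 29.4 to 42.4) had a summit inside some block against 12.9% of all IDs, as genes with more peaks have more places for one. Member peaks with a summit were longer (median 250 block bases against 101) and had a median fold of 5.03 against 4.09. The same held over the whole list, with 201 bases against 101 and a fold of 6.5 against 4.4.

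The members with 4 summits inside their blocks were AGRN, LAMA5, VWA1 and SUPT5H, an elongation factor subunit gene. VWA1 had folds of 10.0, 7.02, 2.15, 5.81, 1.39, 2.73, 12.4, 13.2 and 9.48, and its summits lay in peaks 1, 2, 4 and 8 with −log10 q of 84.6, 68.6, 131 and 9.86. The strongest of the 4 was therefore in a peak of middling fold and the weakest in the peak of highest fold. COL18A1 had a summit of 81.9 in its peak 4 (fold 5.06) and AKT2 one of 70.8 in peak 10 (fold 7.62), next to its strongest peak. The highest-fold peak of a member held a summit in 20 of 205 genes (9.76%, 6.40 to 14.6) and the other peaks did in 93 of 1314 (7.08%, 5.81 to 8.59). These intervals overlap.

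The FDR separated member peaks little. It had a median of 1.51e-04 in member peaks and 2.40e-04 over the list, and 93.2% of member peaks (1415) had an FDR under 0.01, against 91.8% of all. Across the 1519 peaks, which share libraries and depth, fold and −log10 FDR had a Spearman correlation of 0.07. In 9 genes all peaks had 1 and the same p-value despite different folds. In AMOTL2 it was shared by 9 peaks with folds from 1.24 to 6.55, in CIC, a transcriptional repressor gene, by 6 with folds from 1.56 to 10.7, and the others included SARM1, EVPL, TLNRD1, RAI1, SBNO2 and ENSG00000114923. Only 55 of 205 genes had as many p-values as peaks. The listed p-value thus did not rank peaks within such a gene. The FDR could still differ there, and in AMOTL2 it lay between 3.16e-04 and 0.00316.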

How the data were processed

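STAR 2.7.1, MACS2 2.2.5, SAMtools, Picard, bedtools, featureCounts and GRCh38 are named in the submitters' processing notes; of roles and settings nothing is stated there. Whether replicates were pooled for peak calling is likewise not given. The deposited MetDiff list has no header and gives each peak a p-value, the FDR as log10 and a ratio (fold), and the deposited MACS2 list a −log10 q-value per summit. Units were read from layout and values.

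Python 3.11.15 with pandas 2.3.3 was used. IDs were named by the sole RefSeq gene (GRCh38.p14) spanning all peaks, unless on the opposite strand, and otherwise by the gene on the peaks' strand, or of unlisted strand, that held most peaks (at least 75%). Names shared by several IDs were replaced by the ID. Intervals have a confidence level of 95% and cover counting error only. Functions were tested on simulated peaks. No genome was used. Members and lists were chosen with earlier results of these data known. Genes were named if they had 9 or more peaks, most block bases or summits, extreme folds, ratios, medians or gaps; others illustrate a group and were chosen after their values were seen. Alternatives are under the closing section.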

Additional observations from a re-analysis of the deposited data

How the results depend on the processing

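No paired analysis was possible because neither list holds a value per library, and for the same reason no replicate could be left out. The count of 205 genes follows the rule: 5 or more peaks gave 361 and 7 or more 121, while counting only peaks with FDR under 0.01, or joining peaks within 100 bases of each other, gave 176 each. Median block bases per gene were 1051, against 998 with FDR under 0.01 and 3563 with introns counted. The median spacing was 1182 bases between peak ends and 1701 between midpoints. The within-gene variation of fold was 4.91 as a ratio and 0.81 as an SD of log2 fold, which is another scale. A summit lay inside 7.44% of peaks, within 150 bases of 27.0%, and inside 5.27% when only summits with −log10 q of at least 10 were used. The other 6 alternatives stayed within the interval of the main value or within 1.5 times of the main count. The depth of the libraries is unknown, so peaks missed for lack of reads cannot be counted.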
